A study of Danio rerio and Xenopus laevis and Xenopus tropicalis with 8 samples.

Results

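spire1 and mical3 encode regulators of the actin cytoskeleton, and their RNAs were followed along the animal-vegetal axis of frog oocytes by tomo-seq, in which serial sections are barcoded and sequenced as one library. Rows were found by symbol: spire1 and mical3 in X. tropicalis and the same symbols with the suffixes .L and .S, which mark the copies of each gene on both subgenomes of the tetraploid X. laevis. Of 6 symbols looked for, 3 were analyzed, namely spire1.L in X. laevis and mical3 and spire1 in X. tropicalis. They belong to tables of 30169 and 28767 gene rows for X. laevis oocytes 1 and 2 and of 15952 and 15496 rows for X. tropicalis oocytes 1 and 2. The search by symbol gave no row for spire1.S, mical3.L and mical3.S, so the L and S copies were not compared. The search would miss a copy listed under another identifier, and the X. laevis level of spire1 is that of spire1.L alone. In X. laevis, 20837 and 19571 rows carried neither suffix. spire1.L and mical3 had been selected on the distribution of their counts along the axis, which lay toward the vegetal pole, so their values along the axis are a description without a test. X. tropicalis spire1 was taken up by name only.

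The study asked where maternal RNAs lie in eggs and oocytes, and 4 of its 8 samples were untreated mature oocytes, 2 from X. laevis and 2 from X. tropicalis. The oocytes came from ovary lobes of wild-type animals and were freed with liberase. Oocytes were cut along the axis into sections, of which the tables hold 96 for each X. laevis oocyte and 96 and 94 for X. tropicalis oocytes 1 and 2. Their thickness was 10 µm in X. tropicalis and 16 or 18 µm in X. laevis. Whether both oocytes of a species came from different females was not given, so that errors and p-values do not reach beyond these 2 oocytes. The p-values rest mostly on a variance pooled over genes, not on a gene's own spread between the oocytes.

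Spire proteins nucleate actin filaments. They bind actin monomers through WH2 repeats, work together with formins such as formin-2, and sit on vesicles marked by Rab11, where they also bind myosin V. In mouse oocytes, Spire proteins and formin-2 build the actin mesh that moves the spindle to the cortex. MICAL proteins are flavin monooxygenases that oxidize methionines of actin, which takes filaments apart, and methionine sulfoxide reductases of the MSRB family reverse this oxidation. MICAL3 is also known from cultured mammalian cells as a partner of Rab8 and of ELKS, the product of ERC1, at sites of vesicle fusion. In frog oocytes, RNAs at the vegetal pole include those of the germ plasm and those of factors that set up the dorsal axis and the germ layers.

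The libraries held 29227123 and 33187809 counts in X. laevis and 20460221 and 13305606 in X. tropicalis. A count stands for one unique molecular identifier (UMI), a random tag that marks a single RNA molecule at its 3' end, so that levels do not scale with transcript length. Sections whose total reached 10% of the median were used, which left 62, 72, 71 and 69 sections, and these were split into 3 regions of nearly equal section number, named animal, middle and vegetal. The vegetal region held 13.9 and 20.4% of the counts in X. laevis and 10.8 and 13.2% in X. tropicalis. Levels are therefore given as counts per 1000000 (CPM) of the section, the region or the whole oocyte, with raw counts beside them where they matter. A higher share of a region's counts and a smaller amount of all other RNA in that region cannot be told apart on the CPM scale. The vegetal markers nanos1, dazl, grip2, trim36 and rtn3 all lay vegetally in all 4 oocytes. Section 96 of X. tropicalis oocyte 1 followed 14 sections below the limit and did not resemble its kept neighbor. It held 2.95% of the counts of the vegetal region, and the main values of mical3 and spire1 in this oocyte are given with and without it.

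spire1.L was among the most abundant RNAs of the X. laevis oocyte, and most of its counts lay in the vegetal region. The oocytes held 23265 and 27341 counts of spire1.L, or 796 and 824 CPM, which placed it 67th and 49th among all genes by level. In the vegetal region alone it was the 3rd and the 5th most abundant gene, against ranks 2621 and 2819 in the animal region. It reached 102 and 94.7 CPM in the animal region, 422 and 483 CPM in the middle region and 3910 and 2734 CPM in the vegetal region of oocytes 1 and 2. Both oocytes had the same order of regions, and the values of different regions did not overlap. This describes the pattern on which spire1.L had been selected and is no separate evidence for it. The vegetal level was 38.4 and 28.9 times the animal level, or 5.06 on the log2 scale in the fit over both oocytes. For comparison, the median log2 difference between the regions over all 15237 genes tested in X. laevis was -0.05.

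Raw counts of spire1.L showed the same direction although the vegetal region held fewer counts in all. They went from 1022 in the animal to 15811 in the vegetal region of oocyte 1 and from 934 to 18394 in oocyte 2, while the region totals fell from 10042171 to 4043790 and from 9866910 to 6728910. Of the raw counts of spire1.L, 68.1% (95% Clopper-Pearson interval 67.5 to 68.7) and 67.6% (67 to 68.1) lay in the vegetal region. These intervals cover counting error only. After division by section totals, the vegetal region held 84.5% ± 2.40 (SD, n = 2) of the spire1.L signal. The median gene held 29.8 and 32.1% there, and spire1.L ranked 38th and 33rd of 15237 genes by this share.

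**Figure D1:**
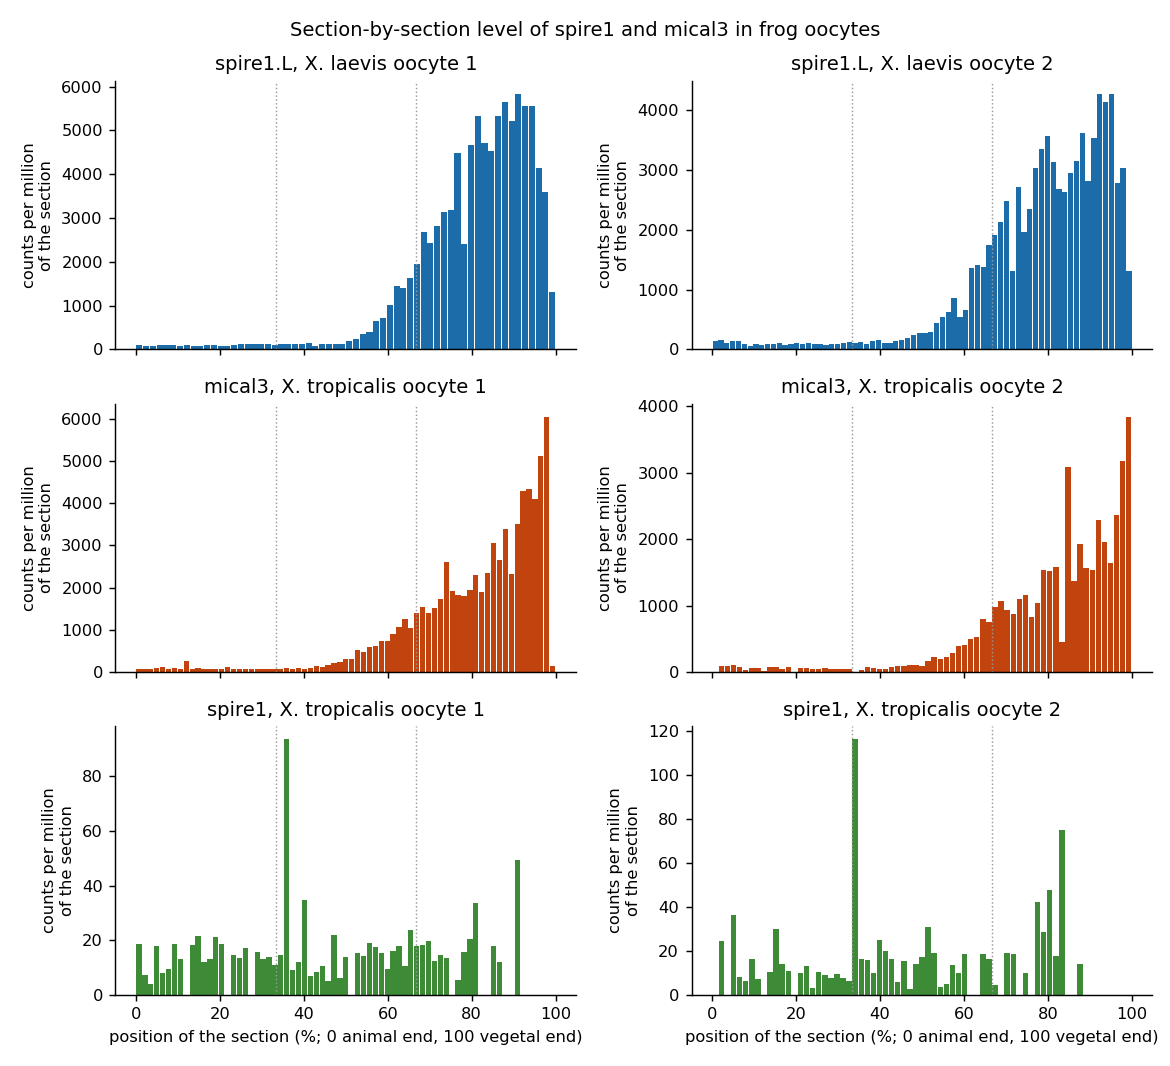
Level of spire1.L in both X. laevis oocytes and of mical3 and spire1 in both X. tropicalis oocytes, in CPM of each section, against the position of the section from the animal (0%) to the vegetal end (100%). Each bar is a section that was kept, dotted lines bound the middle region, and the vertical axes differ. spire1.L reached 5834 and 4274 CPM and mical3 6057 and 3846 CPM in their highest sections, whereas spire1 showed single high sections in the middle and vegetal regions with few counts behind them.

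Along the sections, spire1.L had a flat low level in the animal region, higher levels from near the equator on, and a broad maximum. In oocyte 1, animal sections ranged from 67.2 to 130 CPM with a median of 97.5 CPM, and vegetal sections from 1315 to 5834 CPM with a median of 4505 CPM. In oocyte 2, animal sections ranged from 64 to 149.6 CPM with a median of 94.6 CPM, and vegetal sections from 1308 to 4274 CPM with a median of 2878 CPM. All 20 and all 24 vegetal sections lay above the highest animal section of the same oocyte. A running mean over 5 sections passed 2 times the animal level at 50.8 and 46.5% of the axis and 10 times that level at 62.1 and 60.4%. The maximum did not lie at the outermost vegetal section, which held 1315 and 1318 CPM from 74 and 39 counts.

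The broad shape is also seen when the sections kept are joined into 10 bins. From the animal to the vegetal end, spire1.L had 87.9, 86, 118, 124, 125, 554, 1925, 3262, 5030 and 4643 CPM in oocyte 1. In oocyte 2 the bins held 103, 90.5, 91.7, 116, 208, 526, 1739, 2654, 3026 and 3780 CPM. The first 5 bins held at most 125 CPM in oocyte 1 and 208 CPM in oocyte 2, and each of the last 4 held at least 1925 and 1739 CPM. Pearson's r between the oocytes over the 10 bins was 0.981. In oocyte 1 the last bin was below the one before it, and in oocyte 2 it was the highest.

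The counts of spire1.L were not corrected for molecules that drew the same tag. The 6 nt of the UMI allow 4096 tags, and the highest section of each oocyte held 1528 and 1795 counts of spire1.L. With a correction for shared tags these became 1912 and 2362, that is, 25.2 and 31.6% more. The vegetal share of spire1.L was 85% ± 2.40 (SD, n = 2) with this correction, which was chosen after seeing the data and leaves section totals as they were.

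mical3 in X. tropicalis was distributed in a similar way at a lower level. The oocytes held 8833 and 3824 counts of mical3, or 432 and 287 CPM, at rank 377 and 759 among all genes by level. The animal region held 78.7 and 58.2 CPM, the middle region 380 and 185 CPM and the vegetal region 2093 and 1302 CPM. The regions followed the same order in both oocytes and did not overlap, although oocyte 2 was lower than oocyte 1 in each of them. The order is again a description, since mical3 had been selected on its counts along the axis. The vegetal level was 26.6 and 22.4 times the animal level, with 4.61 on the log2 scale in the fit over both oocytes and a median of -0.08 over all 9452 genes tested in X. tropicalis. In the vegetal region mical3 was the 12th and the 48th most abundant gene, against ranks 3467 and 4109 in the animal region.

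**Figure D2:**
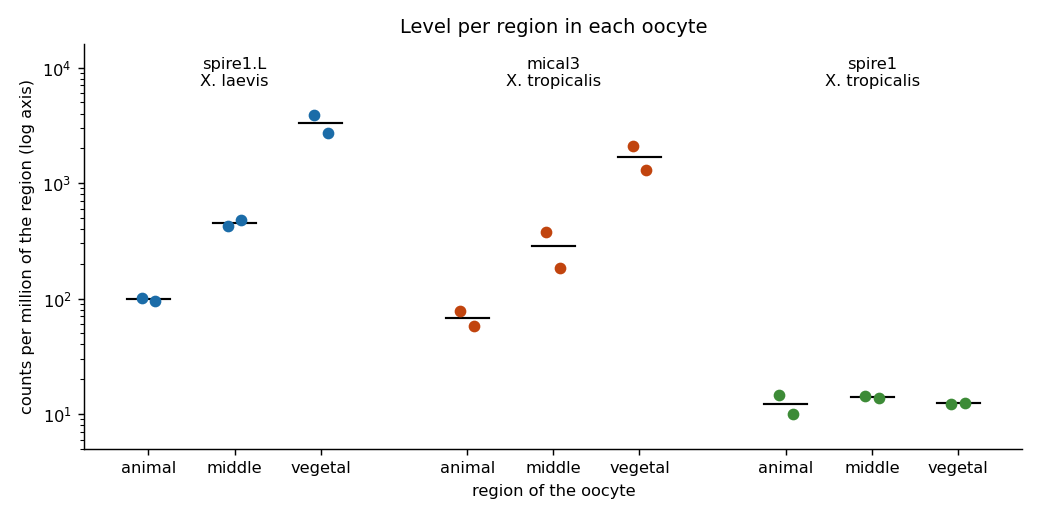
Level of spire1.L, mical3 and spire1 in the animal, middle and vegetal region, in CPM of the region on a log axis. Points are single oocytes (oocyte 1 left, oocyte 2 right) and lines are means. spire1.L and mical3 were higher from region to region toward the vegetal end in both oocytes, whereas all 6 values of X. tropicalis spire1 lay between 9.91 and 14.6 CPM.

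The vegetal region held 82.1 and 85.1% of the mical3 signal after division by section totals, with a mean of 83.6% ± 2.16 (SD, n = 2). Without section 96 the mean was 84.5%, and oocyte 1 had a vegetal level of 2081 CPM, 26.4 times the animal level. Of the raw counts, 52.3% (95% Clopper-Pearson interval 51.2 to 53.3) and 59.9% (58.4 to 61.5) lay in the vegetal region. The raw share of oocyte 1 was 55.8% without section 96. The shares lay well above the 10.8 and 13.2% that the vegetal region held of all counts. By the normalized share, mical3 ranked 47th and 28th of 9452 genes, with a median of 28.7 and 31.1% over all genes.

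Section by section, mical3 was highest at the vegetal end. In oocyte 1, animal sections had a median of 74.1 CPM (62.8 to 274) and vegetal sections a median of 2320 CPM (139 to 6057). In oocyte 2, animal sections had a median of 57.2 CPM (0 to 109) and vegetal sections a median of 1536 CPM (452 to 3846). All 23 vegetal sections of oocyte 2 and 22 of 23 of oocyte 1 lay above the highest animal section. The exception was section 96, with 139 CPM of mical3 from 9 counts, against 6057 CPM in section 81, the last kept section before it.

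In 10 bins from animal to vegetal, mical3 had 87.7, 78.1, 72.7, 78.6, 203, 605, 1227, 1830, 2488 and 3351 CPM in oocyte 1. Oocyte 2 held 65.6, 64.8, 54, 52.8, 86, 277, 785, 1080, 1633 and 2323 CPM. The last bin was the highest in both oocytes, with 4100 CPM in oocyte 1 without section 96, and the profiles of the oocytes correlated at r = 0.997 over the 10 bins. A running mean over 5 sections passed 2 times the animal level at 44.4 and 50% and 10 times that level at 61.3 and 63% of the axis, close to the positions found for spire1.L. Pearson's r between spire1.L and mical3 over the 10 bins lay between 0.964 and 0.990 for the 4 pairs of oocytes. The points of such a correlation share the order of the sections, so that it describes the similarity of 2 curves only.

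X. tropicalis spire1 showed no such profile. Its oocytes held 294 and 162 counts, or 14.4 and 12.2 CPM, which is near the middle of all genes by level, at the percentiles 51 and 48.9. The animal region held 14.6 and 9.91 CPM, the middle region 14.4 and 13.8 CPM and the vegetal region 12.3 and 12.6 CPM. Regions overlapped, and the oocytes went in opposite directions, with -0.23 and 0.36 on the log2 scale for vegetal over animal. The log2 fold change over both oocytes was 0.01 with a standard error of 0.31 (0.06 without section 96), and the quasi-likelihood test of edgeR gave an adjusted p of 0.984 (Benjamini-Hochberg, over all genes tested). The vegetal region held 27.2% ± 3.74 (SD, n = 2) of the spire1 signal (28.2% without section 96), near the median of all genes. A total of 27 and 22 vegetal counts set the precision of these values, and 12 of 23 and 10 of 23 vegetal sections had any count of spire1. Among the genes tested in X. tropicalis, 9.87% were called higher in the vegetal and 18.9% higher in the animal region. A call means an adjusted p below 0.05 in edgeR.

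Neither the level nor the vegetal share of spire1 overlapped between the oocytes of both frogs. spire1.L had been selected for its vegetal counts and X. tropicalis spire1 by name only, so the differences in vegetal share and in level are a description. Most counts of spire1.L were vegetal, so its level in the whole oocyte is not separate from that selection. How often other genes fail to overlap between the frogs is not given here. Mean CPM of spire1.L in X. laevis was 61 times that of spire1 in X. tropicalis, with 55.4 to 67.7 over the pairs of oocytes. In the animal region the ratio was 8.01 (6.48 to 10.3), in the middle region 32.1 (29.3 to 35) and in the vegetal region 267 (218 to 318). The levels of both species did not overlap in any region. These ratios set tables made with different genomes side by side, and no test was made between them. Which 3' ends the annotations hold for the rows was not examined here.

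In the zebrafish one-cell embryos of the study, the entry SPIRE1 had 97, 233 and 2812 expected counts and a vegetal share of 18, 37.6 and 29.9%. A joined entry of 2 identifiers that includes MICAL3, whose reads cannot be divided, had 230, 180 and 1287 expected counts and a vegetal share of 14.5, 16.5 and 27.2%. In replicate 1, bins 8 to 10 held 1, 3 and 2 counts of SPIRE1 and 9, 2 and 1 of the joined entry. The shares of this replicate thus rest on few counts. The mean levels were 38.7 CPM ± 43.1 for SPIRE1 and 25.7 CPM ± 13.4 for the joined entry (SD, n = 3), so the embryos differed widely. The UMI of replicate 3 was shorter than that of the others.

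The positions of spire1.L and mical3 were set beside those of RNAs known to lie at the vegetal pole of frog oocytes. The mean position of the signal, with 0% at the animal and 100% at the vegetal end, was 80.6 and 78.8% for spire1.L and 80.4 and 81.4% for mical3, with 81.5% in oocyte 1 without section 96. It was 46.2 and 47.5% for X. tropicalis spire1. The germ plasm RNAs nanos1 and grip2, a translational repressor and a scaffold protein, had their mean at 95.7 and 94% (nanos1.L) and 95.1 and 94.8% (grip2.L) in X. laevis. In X. tropicalis they had it at 95.4 and 96.7% (nanos1) and 95.6 and 97.1% (grip2). The mean positions of spire1.L and mical3 thus lay below those of nanos1 and grip2 in every oocyte. A mean position does not measure width or the place of the maximum, and mical3 was itself highest in the last bin.

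In the order of mean positions, the neighbors of spire1.L were bicc1.L, with 79.1 and 78.4%, and gdf1.L, with 83.3 and 79.1%. bicc1 encodes an RNA-binding protein and gdf1 a ligand of the TGF-beta family. Within each oocyte, spire1.L lay below gdf1.L and above bicc1.L. Between oocytes, its values overlapped with those of both genes. The neighbors of mical3 were rtn3, a reticulon of the endoplasmic reticulum, with 80.4 and 77.6%, and dnd1, an RNA-binding germ cell factor, with 83.8 and 82.7%. The values of dnd1 lay above those of mical3 in both oocytes, whereas mical3 and rtn3 differed in oocyte 1 by less than the oocytes of each gene did. plin2, a lipid droplet protein, had a lower mean, at 69.4 and 68.5% (plin2.L) and at 67.4 and 63.9% (plin2). Its level still rose toward the vegetal end, and was highest in the last bin (plin2.L) or the bin before it (plin2) in both oocytes. The animal region held on average 13.3% of the plin2.L signal and 15.2% of the plin2 signal.

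**Figure D3:**
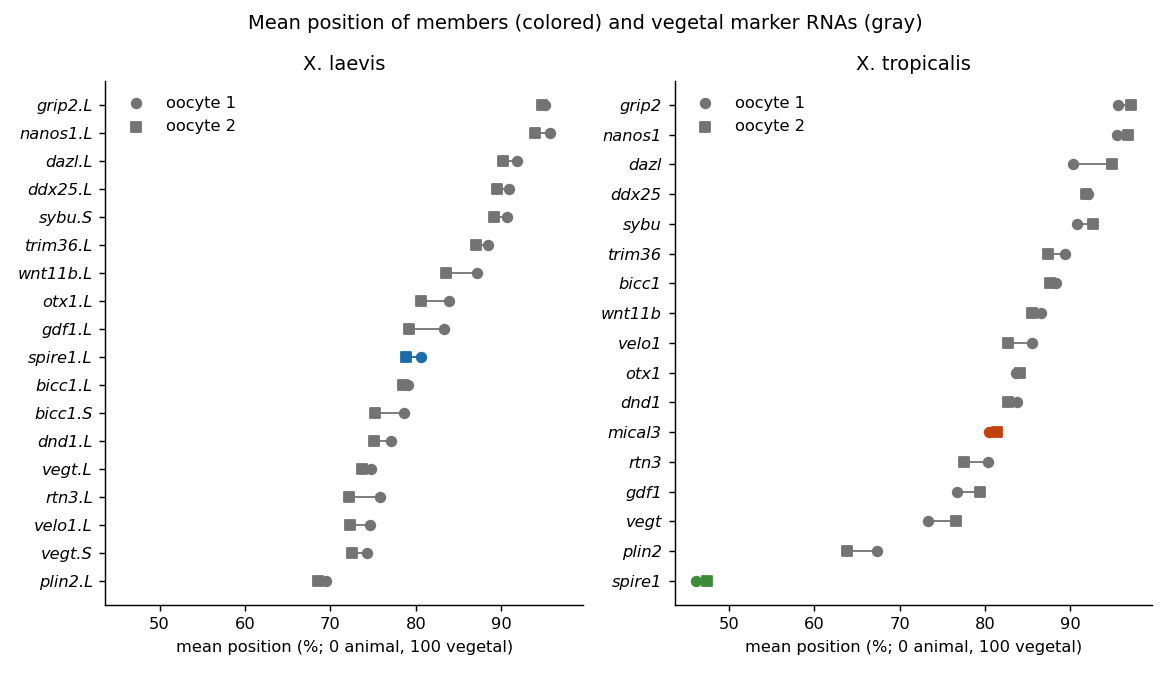
Mean position of the signal along the axis for spire1.L, mical3 and spire1 (colored) and for vegetal marker RNAs (gray) in X. laevis (left) and X. tropicalis (right). Circles are oocyte 1 and squares oocyte 2 of each species, and genes are ordered by their mean. spire1.L (80.6 and 78.8%) and mical3 (80.4 and 81.4%) lay below nanos1 and grip2 and above plin2, and spire1 lay at 46.2 and 47.5%.

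The genes most like each member were found from the correlation over the 10 bins, as the mean of both oocytes, among 12221 genes of X. laevis and 7440 of X. tropicalis with at least 200 counts in each oocyte. Most like spire1.L was bicc1.S, with r = 0.997, followed by LOC108708269, LOC108704361, LOC108718678 and cnppd1.L with r from 0.994 to 0.996. bicc1.S had 124 and 78.3 CPM and a vegetal share of 82.7 and 77.2%. The share of the other 4 lay between 61.5 and 86.7%, so that a like shape went with different contrasts to the animal region. Most like mical3 was LOC100485551, with r = 0.996, followed by LOC100487364, mov10, cnksr2 and wnt5a with r from 0.991 to 0.994. mov10 is an RNA helicase, cnksr2 a scaffold of Ras signaling and wnt5a a Wnt ligand. Their vegetal shares lay between 80.9 and 87.6%, and LOC100485551 had 1089 and 1000 CPM.

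The closest relatives of the members were compared between the regions next. spire2, the other Spire gene, was the more abundant one in X. tropicalis and fell toward the vegetal pole. It had 140 and 137 CPM in the oocytes, 179 and 158 CPM in the animal region and 66.1 and 55.9 CPM in the vegetal region. The log2 fold change of spire2 was -1.46 with a standard error of 0.18 (edgeR, adjusted p = 9.9e-15), and without the oocyte as a block the adjusted p was 0.0514. The MICAL-like genes, which share domains with MICALs but lack the oxidizing enzyme domain, did not pass the test. micall1 had a log2 fold change of 0.24 and micall2 of -0.30 in X. tropicalis, and micall2.L had 0.25 in X. laevis, with adjusted p of 0.474, 0.225 and 0.175 in edgeR.

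The partners of Spire and MICAL3 differed in whether they passed the test, and a partner that did not pass may still differ between the regions. fmn2, which encodes formin-2, had 228 and 140 CPM in X. tropicalis and a log2 fold change of 0.35 (edgeR, adjusted p = 0.110), and passed the test only with TMM scaling (adjusted p = 0.0279). rab11a had -0.22 (adjusted p = 0.323) and myo5a, a myosin V, -0.03 (adjusted p = 0.933) in X. tropicalis. In X. laevis, rab11a.S had 0.25 (edgeR, adjusted p = 0.119), and this too passed with TMM scaling only (adjusted p = 0.0405). myo5a.L fell by 1.22 on the log2 scale (edgeR, adjusted p = 0.00409), on 9 and 27 vegetal counts, and did not pass in DESeq2 or without the block. The partners erc1, with a log2 fold change of -0.26, and msrb1, with -0.29, did not pass in X. tropicalis (edgeR, adjusted p = 0.509 and 0.201). The Rab gene rab6a.L had means of 160 CPM in the animal and 159 CPM in the vegetal region of X. laevis. In X. tropicalis, rab6a had a mean level of 0.29 CPM and msrb2 had 1 count in oocyte 1, too few for a profile.

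rab8a, which encodes the Rab partner of MICAL3, passed the test in both frogs, in opposite directions. rab8a.L rose toward the vegetal pole of X. laevis, from 17.3 and 22.4 CPM in the animal to 40.3 and 56.2 CPM in the vegetal region, with a log2 fold change of 1.28 ± 0.14 (SE; edgeR, adjusted p = 1.2e-06). In X. tropicalis rab8a had -0.48 ± 0.18 (SE; edgeR, adjusted p = 0.0312) and no longer passed under 6 alternatives, where the adjusted p lay between 0.0570 and 0.759. The difference between the species was not tested.

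Of the 92 X. laevis genes tested from the lists of actin genes, 20 (21.7%) were higher in the vegetal and 12 (13%) higher in the animal region. Over all genes tested, the shares were 13.2 and 19.3%. Of the 89 X. tropicalis genes tested from the lists, 13 (14.6%) were higher in the vegetal and 17 (19.1%) higher in the animal region, beside 9.87 and 18.9% of all genes. The median log2 fold change of the actin genes was 0.07 in X. laevis and -0.03 in X. tropicalis, beside -0.05 and -0.08 over all genes. With TMM scaling, the vegetal share of all calls was 47.3% in place of 40.5% in X. laevis. In X. tropicalis it was 45.6% in place of 34.4%. The balance of both directions therefore depends on the scaling in both frogs.

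**Figure D4:**
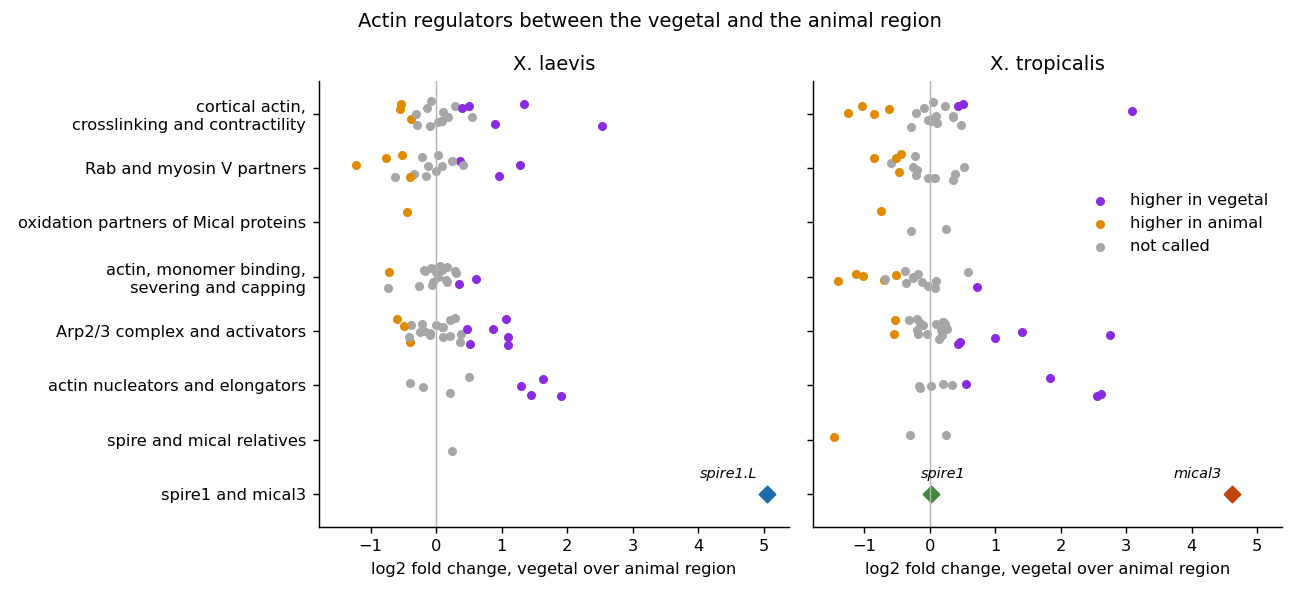
Log2 fold change of the vegetal over the animal region for the genes tested from the lists of actin regulators, in X. laevis (left) and X. tropicalis (right). Points are genes, colored by the call at an adjusted p below 0.05 in edgeR, and diamonds are spire1.L, mical3 and spire1, of which the first 2 carry no test. All actin genes other than spire1.L and mical3 lay between -1.46 and 3.08.

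By list, the calls stand beside 13.2% of all genes higher in the vegetal and 19.3% higher in the animal region of X. laevis. In X. tropicalis these shares were 9.87 and 18.9%. The list of nucleators and elongators of filaments was small, and its calls were in the vegetal direction. In X. laevis, 4 of 8 tested rose vegetally, with cobl.L at 1.90, vasp.L at 1.63, evl.L at 1.45 and evl at 1.30 on the log2 scale. cobl.L rested on 22 and 10 animal and 30 and 30 vegetal counts. evl.L differed between the oocytes, with 2.22 in oocyte 1 and 0.74 in oocyte 2. The rows evl.L and evl may share reads, so they may not be separate calls. Cobl is a WH2 nucleator like Spire, and vasp and evl encode Ena/VASP proteins, which lengthen filaments. In X. tropicalis, 4 of 9 tested rose, led by the formins daam1 at 2.61 and diaph2 at 2.55 and by cobll1 at 1.84. diaph2 had 72 and 29 vegetal counts, and its adjusted p without the block was 0.0501. Among the Arp2/3 complex and its activators, 6 of 25 tested rose and 3 fell in X. laevis, and 5 of 22 rose and 2 fell in X. tropicalis. wasl, which encodes N-WASP, rose in both frogs, by 1.10 for wasl.L and by 2.75 for wasl.

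The monomer-binding, severing and capping genes had 2 vegetal and 1 animal call among 20 tested in X. laevis, and 1 vegetal and 5 animal calls among 17 in X. tropicalis. actg1, a cytoplasmic actin, fell by 1.40, and gsn, which encodes the severing protein gelsolin, fell by 1.12 on the log2 scale in X. tropicalis. Neither passed without the block, and gsn did not pass in DESeq2. gsn had -1.62 in oocyte 1 and -0.12 in oocyte 2. In the list of cortical and contractile genes, vcl.S, which encodes vinculin, rose by 2.54 in X. laevis, and anln, which encodes anillin, rose by 3.08 in X. tropicalis, with 3.63 and 2.48 in oocytes 1 and 2. The list held 5 vegetal and 3 animal calls among 20 tested in X. laevis and 3 and 4 among 20 in X. tropicalis. Among the Rab and myosin V partners, 3 of 17 tested rose and 4 fell in X. laevis, and none of 15 rose and 4 fell in X. tropicalis. Of the genes that work with MICALs in oxidation, 1 of 1 tested fell in X. laevis and 1 of 3 fell in X. tropicalis. The adjusted p of the nucleators, wasl.L, wasl, actg1, gsn, vcl.S and anln named here lay at or below 0.000368 in edgeR, the value of gsn.

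Ovarian cells other than the oocyte were looked for by the symbols of 17 markers of follicle and stromal cells, which matched 15 rows with counts in each X. laevis oocyte. Their summed level was 31.3 and 35.5 CPM in the animal and 130 and 147 CPM in the vegetal region. Of 16 rows in X. laevis, 8 had enough counts for the test, and all 8 rose vegetally (edgeR), beside 13.2% of all genes. A scarce gene passes the filter on counts more easily where its counts are concentrated. The count of 8 may therefore be partly set by the filter and is a description. In oocyte 2, 352 of their 986 vegetal counts came from col1a2.L, which encodes a collagen, and 43 from foxl2.S, which encodes a transcription factor of granulosa cells. spire1.L had 3910 and 2734 CPM in the same regions. In X. tropicalis, 3 such rows had counts in each oocyte, with 1.33 and 1.26 CPM in the animal and 2.74 and 2.85 CPM in the vegetal region. The part of these cells in the vegetal values of X. laevis was not tested. Oocyte markers had 1.09 and 1.26 times as much in the vegetal as in the animal region of X. laevis, and 1.42 and 1.27 times as much in X. tropicalis. In X. laevis, 3 of 10 tested rose vegetally and 1 fell (edgeR), beside 13.2 and 19.3% of all genes. In X. tropicalis, 2 of 9 tested rose and none fell, beside 9.87 and 18.9% of all genes.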

How the data were processed

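The members and the gene lists were chosen with earlier results of these data known. For the frog oocytes, the authors mapped reads with STAR 2.5.3a to genome version 9.2 for X. laevis and version 9.1 for X. tropicalis and deposited whole-number UMI counts per gene and section. The highest count, 4106 in X. laevis oocyte 2, lies above the 4096 tags of 6 nt and was not explained here. For zebrafish, the deposited values are expected counts, corrected by the authors for shared tags. The methods drop sections with low recovery of spike-in RNA, below about 0.04% of the library, and this limit, applied to the spike-in counts of a section, kept 0 frog sections and was replaced by 10% of the median section total. Spike-in rows were left out.

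Counts were summed over the animal and vegetal region and compared with edgeR 4.0.16 (R 4.3.3, limma 3.58.1; glmQLFit and glmQLFTest), with the oocyte as a block, region totals as library sizes and Benjamini-Hochberg adjustment at 0.05. Genes needed 5 counts in one section of each oocyte. Common dispersions were 0.00791 and 0.0142. The fit left 1 residual degree of freedom in each species, so p-values and standard errors rest mostly on variance pooled over genes. A gene whose oocytes differ widely can therefore still have a small p-value. Both regions come from one oocyte, and their deviations from the region means correlated at 0.497 in X. laevis and 0.707 in X. tropicalis. On simulated data, 87% of 2-fold and 99% of 4-fold changes were recovered for X. laevis and 75 and 99% for X. tropicalis. The simulation gave every gene the same common dispersion and put changes only into genes above a minimum of mean counts. These rates therefore do not cover genes with low counts or genes whose oocytes differ more than the common dispersion allows. The text names all member rows, the 5 genes most like each of spire1.L and mical3, up to 10 called actin genes per species with the largest changes in one direction in both oocytes, and direct partners. Marker genes were named for comparison of positions.

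Alternatives were TMM factors, DESeq2 1.42.0, no filter, all sections, outer regions of 25% of the sections at each end, no block and leaving out each oocyte. Python 3.11.15, numpy 2.4.6, pandas 2.3.3, scipy 1.17.1 and matplotlib 3.10.9 were used. The scSLAM-seq library was not used here.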

Additional observations from a re-analysis of the deposited data

Results flagged for a closer look

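In 2 gene pairs related to Spire and MICAL3, the sign of the difference between the regions was shared by both oocytes of a frog and opposite between the frogs. The share of all gene pairs with such signs is not given here, so the count of 2 is a description. rab8a.L had a log2 of vegetal over animal level of 1.22 and 1.33 in X. laevis oocytes 1 and 2, and rab8a had -0.60 and -0.35 in X. tropicalis. micall2.L had 0.23 and 0.27, and micall2 had -0.075 and -0.52. Neither difference between the species was tested. The micall2 values did not pass the test in either species, and that of X. tropicalis oocyte 1 was near the median of -0.08 over all genes tested.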

How the results depend on the processing

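The vegetal share of spire1.L was 84.5% and became 64.6% with all sections, 69.6% with the outermost 25% of the sections as the vegetal region and 67.8% as raw counts. For mical3 it was 83.6% and became 70.9, 69.6 and 56.1%, and for X. tropicalis spire1 it was 27.2% and became 35.3, 20.3 and 11.4%. With all sections, the regions are set anew, and a section with few counts weighs as much as any other. The sections kept held 99.9 and 99.3% of the counts in X. laevis and 99.6 and 99.5% in X. tropicalis. Section 6 of X. laevis oocyte 1, below the limit, had 5215 CPM of spire1.L from 4 counts. The part of such sections in these shifts was not tested. The smaller region of 25% holds fewer sections by construction. Leaving out each oocyte gave 82.8 to 86.2% for spire1.L, 82.1 to 85.1% for mical3 and 24.6 to 29.9% for spire1, and leaves 1 oocyte and no test. Leaving out section 96 and correcting shared tags were chosen after seeing the data. The log2 fold change of X. tropicalis spire1 lay between -0.12 and 0.14 over the alternatives with both oocytes and did not pass the test in any of them, and it was -0.23 and 0.36 with a single oocyte, so that its sign is not set.

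The counts of called genes depended on the block, on the method of the test and, in X. laevis, on the sections used. DESeq2 and the fit with all sections kept the pairing of regions within an oocyte. In X. laevis, 2006 genes were higher vegetally and 2944 in the animal region. Without the replicate block there were 846 and 1128, in DESeq2 1095 and 1218, and with all sections 934 and 1021. In X. tropicalis, 933 and 1782 genes became 157 and 137 without the block and 545 and 656 in DESeq2. The cause of these shifts was not tested. Without the block, diaph2 (adjusted p = 0.0501), spire2 (0.0514), wasf1 (0.336), actg1 (0.154), sptbn1 (0.126), gsn (0.624), rab8a (0.759), rhoa.S (0.0924) and myo5a.L (0.0629) did not pass in edgeR. In DESeq2, gsn (0.331), rab8a (0.456) and myo5a.L (0.143) did not pass. No called gene named here changed direction, but without the block the X. tropicalis calls were no longer mostly in the animal direction. The planned comparisons of L with S copies, and the limit of 25% of the median section total that belonged to them, were not run, since the search by symbol gave no rows for the other copies. Depth limits X. tropicalis spire1, with 27 and 22 vegetal counts.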
